A study of Rattus norvegicus with 8 samples.

Results

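Transcripts of the cytosolic ribosomal proteins were followed in rat liver after a glucocorticoid, an activator of the kinase AMPK, and both together. Members were all probe sets whose single gene symbol in the platform annotation was Rpl or Rps with a number and at most 1 trailing letter, or Rplp0 or Rpsa. The rule gave 48 probe sets of 42 genes among 31099 probe sets, with 32 probe sets of 29 large-subunit genes and 16 probe sets of 13 small-subunit genes. The rule used the annotation alone and no measured value. A further 33 probe sets that the annotation ties to several symbols, a ribosomal protein among them, lay outside the rule and are given as counts.

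The 4 groups held 2 arrays each of liver from male Sprague-Dawley rats weighing 180 to 200 g, taken 8 h after injection. Dexamethasone, a synthetic glucocorticoid, was given into muscle at 1.5 mg/kg with saline into the peritoneum. AICAR, a nucleoside that cells turn into an AMP mimic which activates AMPK, was given into the peritoneum at 0.7 g/kg with saline into muscle. The combination group received both agents at these doses, and the vehicle group received saline at both sites. Nothing in the labels ties the paired arrays of a group to different rats, and the spread that enters each p-value may therefore be technical. The design asked whether AMPK alters the response of liver to glucocorticoids.

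Each ribosome carries 1 copy of most of these proteins, so cells make them in step, and liver spends much of its protein synthesis on proteins it secretes. Their messages begin with a run of pyrimidines, the TOP element, and their translation is switched by the kinase complex mTORC1, which growth signals raise and AMPK restrains. The arrays measure message levels and not translation, so that control is not seen here.

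Values are log2 signals, and signals of different probe sets do not rank transcripts by amount. For 38 of the 42 genes the probe set that stood for the gene, the one with the highest mean over the 8 arrays, read 11 or above. Rpl39, a small protein of the peptide exit tunnel, read between 6.28 and 6.63. Rpl28, Rpl30 and Rps13 had only probe sets with means below 6, near the lower quartile of the arrays (3.84 to 3.89), so their values say little. The median SD within groups was 0.0361 for member genes, against 0.0952 for all probe sets. Across probe sets, arrays correlated at 0.997 to 0.998 within groups and at 0.979 to 0.993 between them.

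Ribosomal protein transcripts were highest after the combination in both subunits. The median over the 27 large-subunit genes above that level was 12.37 and 12.45 in the dexamethasone arrays, 12.20 and 12.19 in the AICAR arrays, 12.75 and 12.74 in the combination arrays, and 12.14 and 12.14 in the vehicle arrays. For the 12 small-subunit genes it was 12.34 and 12.31 after dexamethasone, 12.19 and 12.21 after AICAR, 12.78 and 12.77 after the combination, and 12.08 and 12.09 after vehicle. Both combination arrays lay above all 6 other arrays for 39 of 42 genes, where 17.5% of all 14217 genes did so. The exceptions were the dim genes Rpl28, Rpl30 and Rps13.

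**Figure D1:**
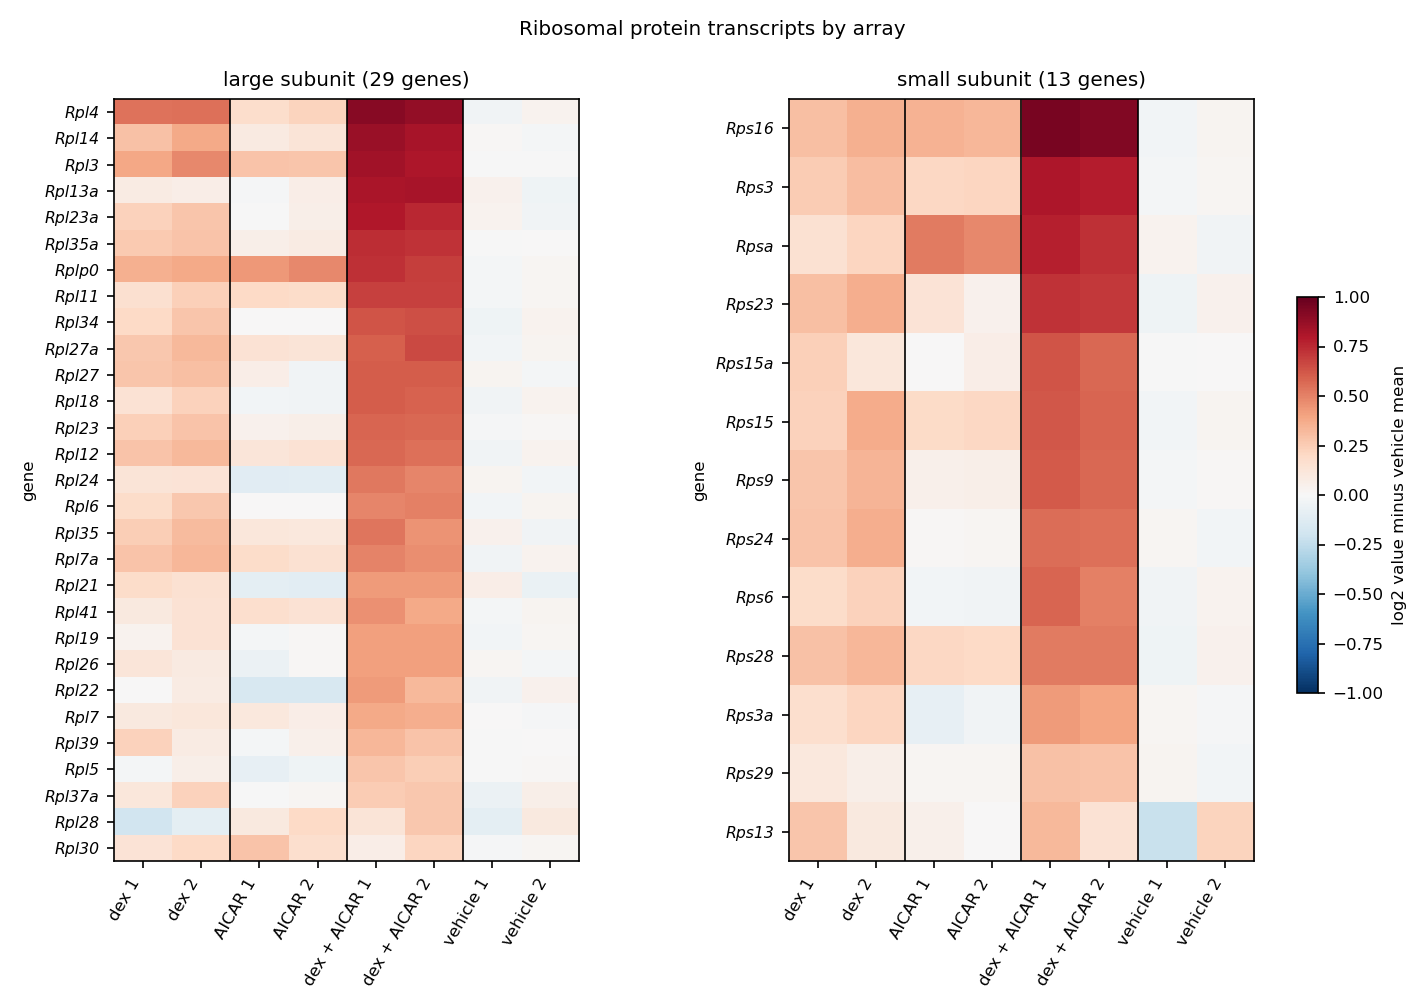
Log2 value of each of the 42 genes minus its mean in the vehicle arrays (colour), by array (columns) and subunit (panels), with genes ordered by the combination difference. The 2 combination columns are the reddest in nearly every row, the dexamethasone columns are paler, and the AICAR columns are coloured mainly at Rpsa, Rplp0, Rps16 and Rpl3.

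The promoters of the genes with the largest differences are shown because these messages moved together and the pyrimidine run is the sequence feature they are known for. RefSeq sequences of the GRCr8 assembly matched 37 of the 42 genes, 35 by gene ID and 2 by symbol. The stretches below run from 25 bases before the annotated start to 15 bases from it on, and capitals mark the longest run of C and T letters within 15 bases of the start on the coding strand.
Rpl4 (chr8:73566452-73566491, plus strand): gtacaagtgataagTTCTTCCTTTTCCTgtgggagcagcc
Rpl14 (chr8:129163595-129163634, plus strand): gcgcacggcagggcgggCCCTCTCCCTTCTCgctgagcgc
Rpl13a (chr1:104748899-104748938, minus strand): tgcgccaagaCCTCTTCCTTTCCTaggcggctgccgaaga
Rplp0 (chr12:46718376-46718415, minus strand): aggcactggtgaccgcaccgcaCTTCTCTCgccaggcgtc
Rpsa (chr8:128728854-128728893, plus strand): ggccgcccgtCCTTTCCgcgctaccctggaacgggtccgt
Rpl3 (chr7:113507976-113508015, minus strand): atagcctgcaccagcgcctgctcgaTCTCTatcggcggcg
Rps16 (chr1:92770633-92770672, plus strand): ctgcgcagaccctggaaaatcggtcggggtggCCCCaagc

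Counted within 15 bases of the annotated start, the run was 14 letters long in Rpl4, Rpl14 and Rpl13a, 8 in Rplp0, 7 in Rpsa, 5 in Rpl3 and 4 in Rps16. A run of at least 8 C or T letters lay within 15 bases of the annotated start in 24 of 37 members (64.9%) and in 3494 of 27457 genes of the table (12.7%). Among 60 mitochondrial ribosomal protein genes 9 had one. In the whole 300-base window and on both strands, CCGGAA, a core of sites of ETS factors, occurred in 14 of 37 members and 16.5% of all genes. ATGGCG, a core of YY1 sites, occurred in 16 of 37 members and 11.1% of all genes. The letters of the first motif on the other strand, TTCCGG, can share bases with a pyrimidine run. An annotated start can lie some bases from the one that cells use, so a short run here says nothing of the message itself.

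Dexamethasone alone raised 19 of 42 ribosomal protein genes and lowered 0 at an adjusted p under 0.05 (limma over all 8 arrays, Benjamini-Hochberg over 31042 probe sets), against 8.37% of all genes higher and 14.3% lower. Among the 535 genes that read 11 or above, 22.8% were higher and 25.6% lower. The rises covered 12 of 29 large-subunit and 7 of 13 small-subunit genes, with median differences of 0.20 and 0.28 on the log2 scale. The median over all genes was -0.03. Both dexamethasone arrays lay above both vehicle arrays for 38 of 42 genes, called or not, where 24.5% of all genes did so.

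The largest rise was in Rpl4, whose protein lines the peptide exit tunnel. Its log2 values were 12.31 and 12.32 after dexamethasone, 11.94 and 11.99 after AICAR, 12.68 and 12.65 after the combination, and 11.73 and 11.80 after vehicle. No group overlapped another. Dexamethasone raised it by 0.55 ± 0.07 (SE; 1.46-fold, adjusted p = 9.05e-04). Rpl3, whose protein reaches toward the peptidyl transferase centre, read 12.24 and 12.33 after dexamethasone, 12.14 and 12.13 after AICAR, 12.69 and 12.66 after the combination, and 11.85 and 11.85 after vehicle. It rose by 0.43 ± 0.07 after dexamethasone (1.35-fold, adjusted p = 0.00313). The other leading rises were 0.37 for Rplp0, the base of the stalk that recruits translation factors, 0.33 for Rps23, near the decoding site, and 0.33 for Rpl14.

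The smallest rise called was 0.25, so the 23 genes not called include many with differences just under it. Rpl34 differed by 0.23 ± 0.07 (adjusted p = 0.0564) and Rpl6 by 0.23 ± 0.07 (adjusted p = 0.0577). Rps6, the substrate of the S6 kinases, differed by 0.21 ± 0.07 (adjusted p = 0.0845), and Rpl11 by 0.20 ± 0.07 (adjusted p = 0.0831). Near 0 were Rpl5 at 0.02 ± 0.07 and Rpl22 at 0.04 ± 0.08. The count depended on single arrays more than the median did. It was 3 without the second dexamethasone array, 5 without the first vehicle array, 8 without the second, and 5 when only the 2 groups compared were fitted, while the median stayed between 0.21 and 0.25. Under a trended and robust prior, 2 choices changed together, 34 genes were called higher and 0 lower. That prior called 3396 of all 31042 probe sets higher, against 2692 as reported.

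After AICAR alone 4 of 42 genes rose and 0 fell, against 6.22% of all genes higher and 8.96% lower, so the share of members called was near that of all genes. The median difference was 0.05. Both AICAR arrays lay above both vehicle arrays for 21 of 42 genes, where 29.5% of all genes did so. The 4 were Rpsa and Rps16 of the small subunit and Rplp0 and Rpl3 of the large one.

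Rpsa, whose protein sits by the mRNA exit and is also known as the laminin receptor, read 11.34 and 11.41 after dexamethasone, 11.71 and 11.67 after AICAR, 11.97 and 11.92 after the combination, and 11.23 and 11.16 after vehicle. AICAR stood clear of dexamethasone here, the reverse of most members. The rise after AICAR was 0.50 ± 0.07 (1.41-fold, limma adjusted p = 0.0036), and dexamethasone alone gave 0.18 ± 0.07 (adjusted p = 0.122). Its other probe sets rose by 0.30 and 0.26 after AICAR, so all 3 were called. For Rplp0 the values were 11.93 and 11.96 after dexamethasone, 12.01 and 12.06 after AICAR, 12.31 and 12.27 after the combination, and 11.56 and 11.60 after vehicle. AICAR raised it by 0.46 ± 0.07 (1.37-fold, adjusted p = 0.00471). Both AICAR arrays lay above both dexamethasone arrays for Rpsa, Rplp0, Rpl41 and the dim Rpl28, where 37.6% of all genes did so. Both dexamethasone arrays lay above both AICAR arrays for 33 genes, against 28.5% of all genes.

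Rps16, which touches the tRNA in the P site, read 11.80 and 11.86 after dexamethasone, 11.85 and 11.83 after AICAR, 12.45 and 12.43 after the combination, and 11.47 and 11.53 after vehicle. The single agents gave overlapping values, with rises of 0.33 ± 0.07 after dexamethasone and 0.34 ± 0.07 after AICAR (limma adjusted p = 0.0128 and 0.0173). The AICAR rise of Rpl3 was 0.28 ± 0.07 (adjusted p = 0.0344), and its second, dimmer probe set gave 0.09 ± 0.08, with 6.25 and 6.20 after AICAR and 6.09 and 6.18 after vehicle. Only Rpsa and Rplp0 were called without AICAR array 1, AICAR array 2, vehicle array 1 or vehicle array 2, and in the fit of AICAR and vehicle alone. Under the trended and robust prior 13 genes were higher and 2, Rpl22 at -0.16 and Rpl24 at -0.11, were lower. Of all 31042 probe sets this prior called 2409 higher and 3639 lower, against 1692 and 2319 as reported. The dim second probe set of Rpl7 was called higher after AICAR by 0.43 ± 0.10, whereas its bright one gave 0.09 ± 0.07.

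**Figure D2:**
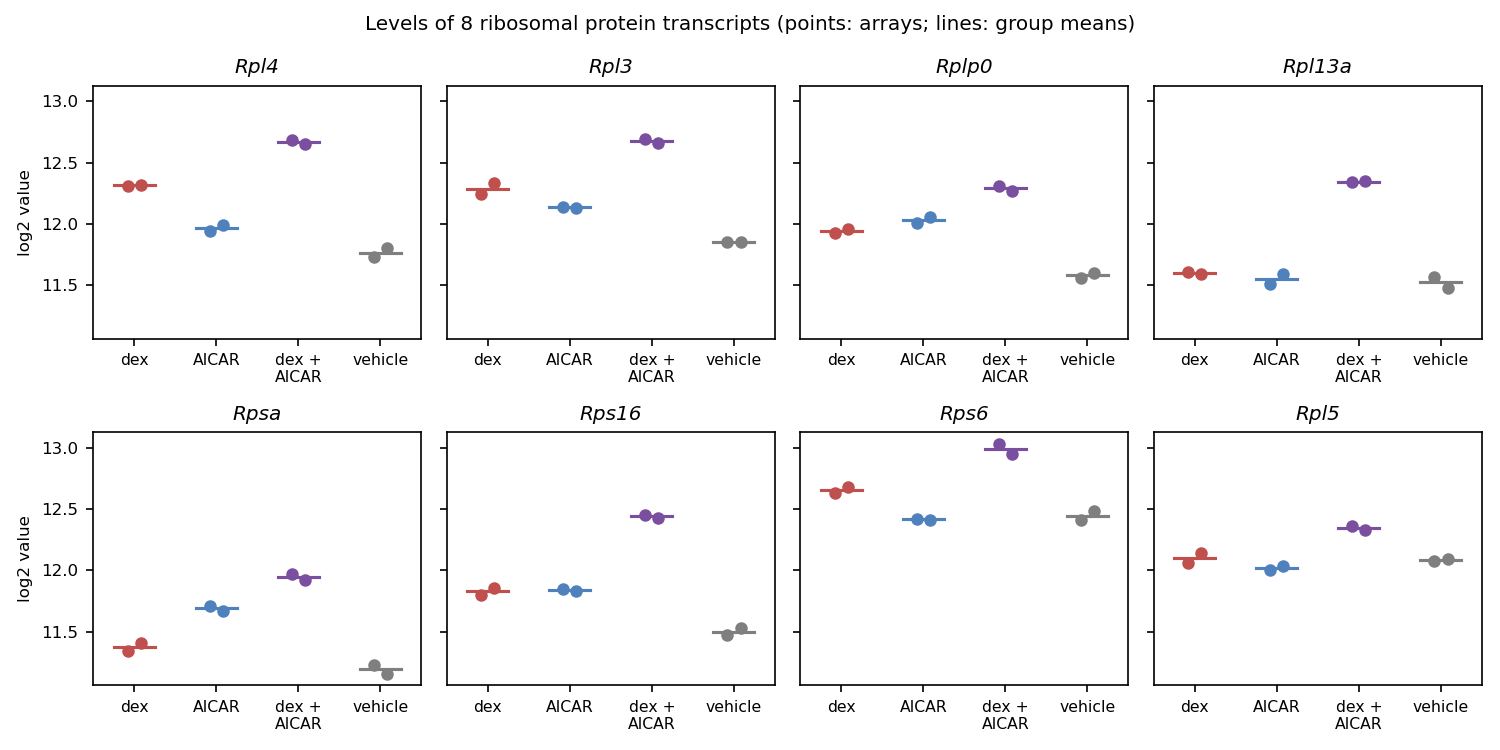
Log2 values of 8 genes in each array (points) with the mean of each group (lines), the groups being dexamethasone (dex), AICAR, both and vehicle. Rpsa and Rplp0 sit higher after AICAR than after dexamethasone, Rpl4 shows the reverse, and the combination arrays of Rpl13a stand apart from the 6 others.

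The combination raised 39 of 42 genes and lowered 0 relative to vehicle, against 15.9% of all genes higher and 18.4% lower. Among genes that read 11 or above 33.8% were higher and 35.1% lower. The 39 were 27 of 29 large-subunit genes, with a median of 0.51, and 12 of 13 small-subunit genes, with a median of 0.59, while the median of all genes was -0.01. These are all the members with a probe set above the dim level, and the 3 not called were Rpl28, Rpl30 and Rps13. Between 34 and 39 genes were called when any 1 array was left out, and 37 or more when the arrays were rescaled by cyclic loess or by centring on the brighter probe sets. Of the 33 probe sets of several symbols 31 were higher and 0 lower, against 13.3% and 13.6% of all probe sets.

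Rps16 rose most, by 0.94 ± 0.07 (1.92-fold, limma adjusted p = 2.43e-05). Rpl4 followed at 0.90 ± 0.07 (1.86-fold, adjusted p = 3.21e-05), and Rpl3 rose by 0.82 ± 0.07. Rpl14 rose by 0.85 ± 0.07, with values of 11.02 and 11.11 after dexamethasone, 10.82 and 10.86 after AICAR, 11.59 and 11.55 after the combination, and 10.74 and 10.71 after vehicle. Its groups did not overlap. Rps3, at the mRNA entry, read 12.14 and 12.19 after dexamethasone, 12.09 and 12.10 after AICAR, 12.69 and 12.67 after the combination, and 11.86 and 11.90 after vehicle, a rise of 0.80 ± 0.07. At the other end of the range were Rpl37a at 0.26 ± 0.08 (adjusted p = 0.0384), Rpl5 at 0.26 ± 0.07 (adjusted p = 0.0233) and Rps29 at 0.29 ± 0.07 (adjusted p = 0.0136). Among the 38 genes at 11 or above, the 19 with brighter probe sets had a median of 0.54 and the 19 others 0.71. Whether bright probe sets near the top of the scale compress differences was not tested.

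By place in the ribosome, all members of each group named here rose after the combination, by differing amounts. So did all 39 members above the dim level, with a median of 0.58, and 19 of those 39 rose after dexamethasone. The 3 proteins of the peptidyl transferase region and stalk base (Rpl3, Rplp0 and Rpl12) had a median of 0.71, and all 3 had also risen after dexamethasone. The 6 proteins of the mRNA path and decoding region (Rps3, Rps15, Rps16, Rps23, Rps28 and Rpsa) had a median of 0.73, and 5 had risen after dexamethasone. The 6 around the exit tunnel (Rpl4, Rpl19, Rpl23a, Rpl26, Rpl35 and Rpl39) had a median of 0.45 with a range of 0.31 to 0.90, and 3 had risen after dexamethasone.

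Rpl5 and Rpl11 bind 5S rRNA before joining the large subunit, and when free they bind the p53 regulator Mdm2. Rpl5 read 12.06 and 12.14 after dexamethasone, 12.00 and 12.04 after AICAR, 12.36 and 12.33 after the combination, and 12.08 and 12.09 after vehicle, so the single agents overlapped or lay below vehicle. Rpl11 read 12.28 and 12.36 after dexamethasone, 12.32 and 12.30 after AICAR, 12.80 and 12.80 after the combination, and 12.10 and 12.14 after vehicle. Its combination rise of 0.69 ± 0.07 was larger than the 0.26 of its partner, a difference between probe sets that was not tested. The array's control for 5S rRNA read 6.56 and 6.63 after dexamethasone, 6.75 and 6.68 after AICAR, 7.55 and 7.47 after the combination, and 6.22 and 6.36 after vehicle. This signal was highest in the combination arrays. The control was left out of all tests, and whether its signal follows the amount of 5S rRNA was not tested.

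**Figure D3:**
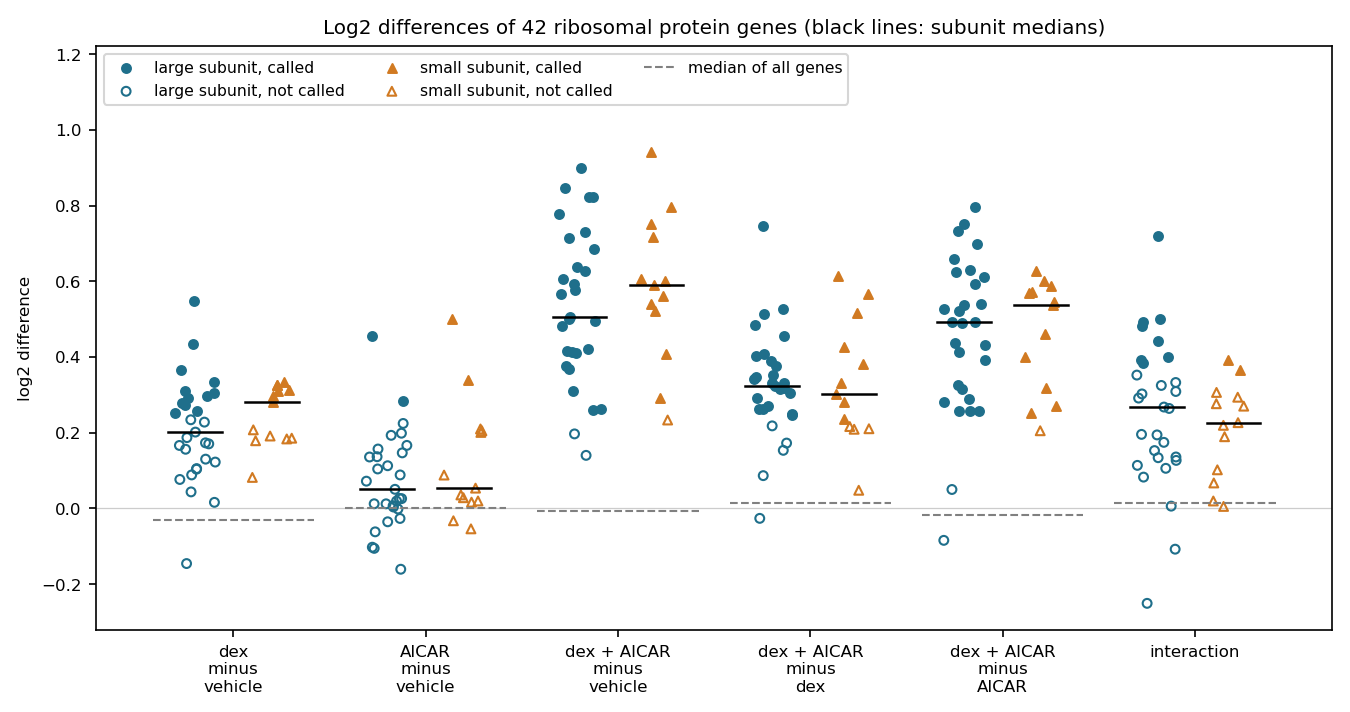
Log2 difference of each of the 42 genes in the 6 comparisons, with filled points for genes called at an adjusted p under 0.05, circles for the large and triangles for the small subunit. Black lines are subunit medians and dashed lines the median of all genes: the medians sit near 0.05 for AICAR, at 0.20 and 0.28 for dexamethasone and at 0.51 and 0.59 for the combination, all against vehicle.

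Against each agent alone, the combination was again higher. Relative to dexamethasone 33 of 42 genes were higher and 0 lower, against 14% and 11.3% of all genes, with a median of 0.32. One of the 33 was the dim Rpl28, at 3.24 and 3.38 after the combination and 2.92 and 3.01 after dexamethasone. The count was 18 without the first dexamethasone array, 14 without the first combination array and 18 without the second. Relative to AICAR 39 of 42 were higher and 0 lower, against 18.7% and 19.4% of all genes, with a median of 0.49. These comparisons share arrays with those above, so their counts are not separate evidence.

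Rpl13a led both. In human myeloid cells its protein can leave the ribosome and silence inflammatory messages. It read 11.61 and 11.59 after dexamethasone, 11.51 and 11.59 after AICAR, 12.34 and 12.35 after the combination, and 11.57 and 11.48 after vehicle. The AICAR and vehicle arrays overlapped each other, both dexamethasone arrays lay above both vehicle arrays, and the combination stood apart. It was higher by 0.75 ± 0.07 than dexamethasone (1.68-fold, limma adjusted p = 2.03e-04) and by 0.80 ± 0.07 than AICAR (1.74-fold, adjusted p = 7.36e-05). Next against dexamethasone came Rps16 (0.62), Rpsa (0.57), Rpl23a (0.53) and Rps3 (0.52). Against AICAR they were Rpl23a (0.75), Rpl14 (0.73), Rpl4 (0.70) and Rpl35a (0.66). The dim probe set of Rpl7 went the other way against AICAR, at -0.46 ± 0.10 (adjusted p = 0.0081), where its bright one rose by 0.28 ± 0.07 (adjusted p = 0.0137). Its 8 values lay between 4.60 and 5.25.

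The interaction asked whether the dexamethasone difference was larger with AICAR than without. It was positive and called for 10 of 42 genes and negative and called for 0, against 11.9% of all genes positive and 8.05% negative. Among the 535 genes that read 11 or above, 12.9% were positive and 16.4% negative. Of the 10, 8 were large-subunit and 2 small-subunit genes. The sign was positive for 40 of 42 genes, against 51.8% of all genes, with a median of 0.27. The exceptions were Rplp0 at -0.11 ± 0.10 and the dim Rpl30 at -0.25 ± 0.12, neither of them called. The smallest interaction called was 0.36, so an excess of the median size could not be called for a single gene.

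Rpl13a had the largest interaction, 0.72 ± 0.10 (limma adjusted p = 0.00244), and was called under all 15 alternative settings that tested it. Among these, fitting only the groups compared repeats the main fit, since an interaction takes in all 4 groups. Rpl23a (0.50 ± 0.10, adjusted p = 0.0127), Rpl22 (0.49 ± 0.11), Rpl24 (0.48 ± 0.10) and Rpl18 (0.44 ± 0.10) followed. Rpl22, a large-subunit protein with a role in lymphocyte development in mice, read 12.04 and 12.12 after dexamethasone, 11.88 and 11.88 after AICAR, 12.46 and 12.36 after the combination, and 12.00 and 12.08 after vehicle. Its AICAR arrays were the lowest and its dexamethasone and vehicle arrays overlapped. Rps6 read 12.63 and 12.68 after dexamethasone, 12.42 and 12.41 after AICAR, 13.03 and 12.95 after the combination, and 12.41 and 12.48 after vehicle, with an interaction of 0.36 ± 0.10 (adjusted p = 0.0441). By contrast Rpl4, Rpl3 and Rpsa had interactions of 0.15, 0.11 and 0.07, none called. In the probe sets that stood for them, combination values lay near the sum of the single differences. Other probe sets of Rpl3 and Rpsa exceeded that sum. The dimmer one of Rpl3 had an interaction of 0.35 ± 0.12 (limma adjusted p = 0.0885), not called. One of Rpsa read 10.96 and 11.03 after dexamethasone, 11.15 and 11.08 after AICAR, 11.60 and 11.60 after the combination, and 10.89 and 10.82 after vehicle.

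How many interactions were called depended on single arrays and on the estimate of spread. It was 5 without the first dexamethasone array, 2 and 4 without the first and second AICAR arrays, 1 and 4 without the first and second combination arrays, and 5 and 3 without the first and second vehicle arrays. With cyclic loess it was 5, and with the trended and robust prior 28. Over all 31042 probe sets these 2 settings called 2215 and 3740 positive interactions, against 2679 as reported. The median over member genes lay between 0.23 and 0.29 when single arrays were left out and was 0.18 with cyclic loess.

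**Figure D4:**
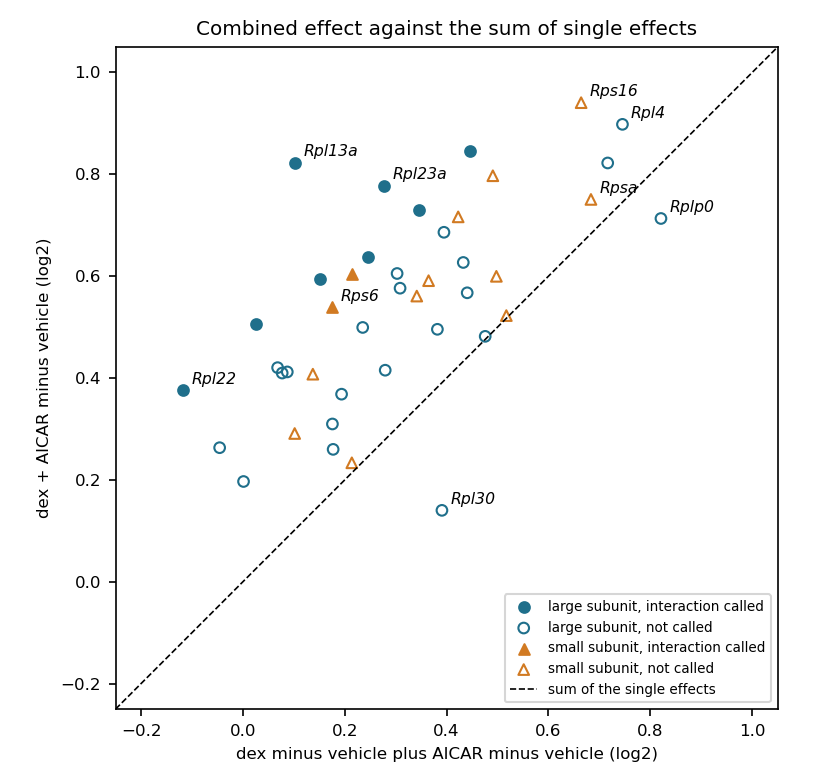
Log2 difference of the combination from vehicle (vertical) against the sum of the dexamethasone and AICAR differences from vehicle (horizontal) for the 42 genes, with filled points where the interaction was called; all differences share the vehicle arrays. The dashed line marks equality: 40 genes lie above it, Rpl13a farthest, and Rplp0 and Rpl30 lie below.

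Among all genes, 8.37% were called higher and 14.3% lower after dexamethasone, 6.22% and 8.96% after AICAR, and 15.9% and 18.4% after the combination. The falls of the next 2 lists after dexamethasone were near the share of all genes. Of 32 initiation factor genes 0 rose and 6 fell after dexamethasone, with a median of -0.12, while after the combination 16 rose and 3 fell, with a median of 0.23. Eif4a1, the helicase that unwinds message leaders, read 10.09 and 10.21 after dexamethasone, 10.36 and 10.38 after AICAR, 11.25 and 11.22 after the combination, and 10.46 and 10.48 after vehicle. It fell by 0.32 after dexamethasone and rose by 0.76 after the combination, with an interaction of 1.19 ± 0.10. Of 65 ribosome assembly factor genes 0 rose and 11 fell after dexamethasone, 1 rose and 13 fell after AICAR, and 25 rose and 3 fell after the combination. Their interaction was positive and called for 33 and negative and called for 0, with a median of 0.49. Pno1, which helps mature the small subunit, had an interaction of 1.43 ± 0.13, and Ebna1bp2, a factor of the large subunit, 1.17 ± 0.10.

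Of the 4 measured genes of a mixed list, Rack1, Naca, Larp1 and Nap1l1, 2 rose after dexamethasone, Rack1 and Nap1l1. After the combination these 2 rose and 1, Larp1, fell. Rack1, a protein held on the small subunit, read 10.86 and 10.90 after dexamethasone, 10.75 and 10.77 after AICAR, 11.29 and 11.29 after the combination, and 10.54 and 10.50 after vehicle, with rises of 0.36 ± 0.07 after dexamethasone and 0.77 ± 0.07 after the combination. Of 10 elongation and release factor genes 1 rose after dexamethasone (Eef2, 0.28), 3 after AICAR and 6 after the combination, and 0 fell in any of these. The 3 after AICAR were Eif5a (0.49), Eef1g (0.44) and Eef2 (0.43), and Eef2, which moves the ribosome along the message, had an interaction of -0.49 ± 0.10. Among 73 mitochondrial ribosomal protein genes 4 rose and 7 fell after dexamethasone, 2 rose and 12 fell after AICAR, and 32 rose and 3 fell after the combination, led by Mrpl49 at 1.29 ± 0.08. Of 5 measured ribosomal protein paralogs 4 rose after AICAR and 2 after the combination. One of the 4, Rpl3l, read between 3.46 and 3.81 on all arrays, below the lower quartile of the arrays, so its values say little. Another, Rps27l, read 7.10 and 7.07 after AICAR, and its vehicle arrays were apart at 6.63 and 6.28.

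Of 21 messages of the mTOR pathway 2 rose and 5 fell after the combination, against 15.9% of all genes higher and 18.4% lower. Sesn2, whose protein restrains mTORC1, rose by 0.52 ± 0.08 after dexamethasone and fell by 0.85 ± 0.08 after the combination. Deptor, another inhibitor, fell by 0.78 ± 0.07 after the combination, and Eif4ebp2, a repressor of cap-dependent translation, rose by 0.67 ± 0.08. Larp1, whose protein binds TOP messages, fell by 0.29 ± 0.07 after the combination. Of 20 genes of RNA polymerase I and its regulators 5 rose and 1 fell after the combination. Myc, a general driver of ribosome production, fell by 0.36 ± 0.09 after dexamethasone and rose by 0.58 ± 0.09 after AICAR, and it was lower after the combination than after AICAR (-0.89 ± 0.09). For 19 cytosolic tRNA synthetase genes the numbers after the combination were 7 higher and 1 lower, with Hars1 at 0.82 ± 0.11.

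**Figure D5:**
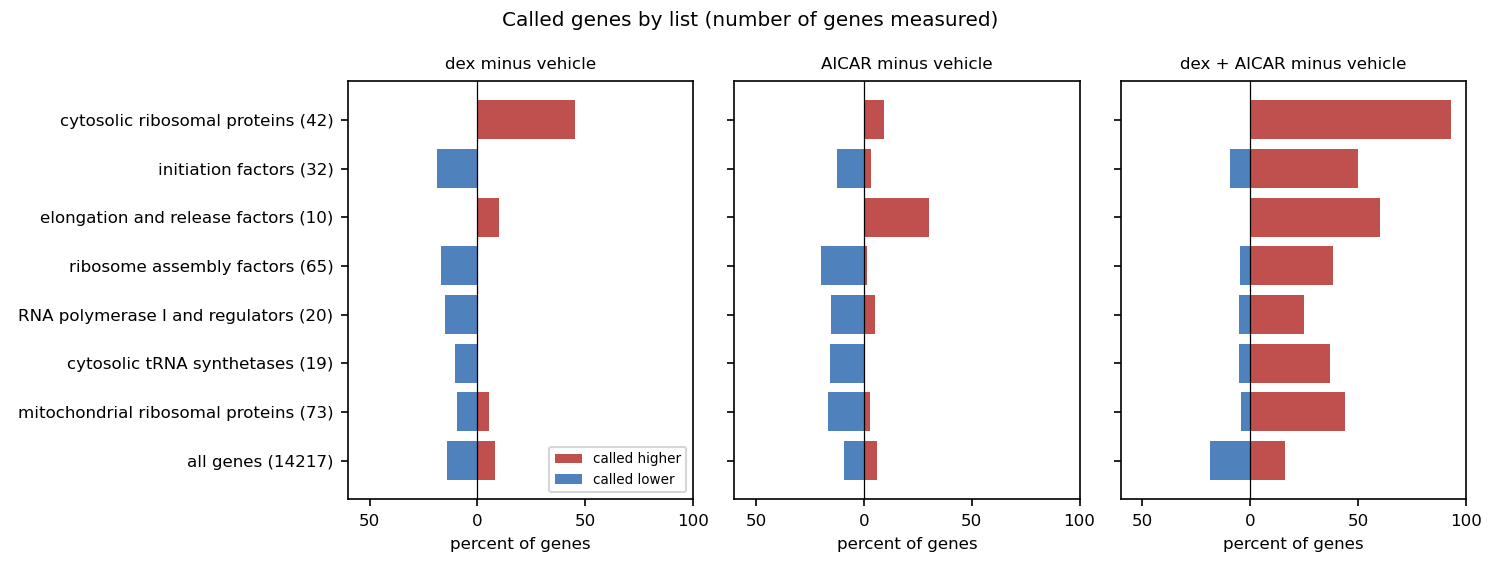
Percent of the measured genes of each list called higher (right of 0) or lower (left of 0) against vehicle after dexamethasone (dex), AICAR and the combination, with the number of genes measured in brackets and all 14217 genes at the bottom. Cytosolic ribosomal proteins have 19, 4 and 39 of 42 genes called higher and 0 lower, whereas initiation and assembly factors have 0 called higher after dexamethasone.

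Cell type markers and RNA quality controls also differed between the groups. Of 10 measured Kupffer cell and macrophage markers, 9 fell after dexamethasone and 10 after the combination, and after AICAR 3 rose and 1 fell. Their summed linear signal was 2249 to 2498 after dexamethasone, 5550 to 5647 after AICAR, 209 to 219 after the combination and 5055 to 5141 after vehicle. Cd5l read 3.10 and 3.15 after the combination, below the lower quartile of the arrays, against 9.85 and 9.75 after vehicle. In whole liver, fewer cells of a type and less RNA per cell cannot be told apart. The sum of 5 hepatocyte markers lay at 85133 to 87200 after dexamethasone, 78907 to 79500 after AICAR, 86794 to 86887 after the combination and 81693 to 82573 after vehicle, and Alb was between 14.68 and 14.74 on all arrays. Summed lymphocyte markers (9 genes) were 247 to 282 after dexamethasone, 341 to 358 after AICAR, 214 to 219 after the combination and 385 to 395 after vehicle. Sinusoidal endothelial markers (6 genes) were 2453 to 2488 after dexamethasone, 3279 to 3325 after AICAR, 2583 to 2595 after the combination and 3635 to 3786 after vehicle. Stellate cell and fibroblast markers (8 genes) summed to 3259 to 3443 after dexamethasone, 4903 to 4945 after AICAR, 2938 to 2987 after the combination and 4033 to 4047 after vehicle. Of these 8 genes 3 were called higher and 3 lower after the combination against vehicle, with a median of -0.005. The lower sum thus does not stand for all of them. Erythroid markers (4 genes) summed to 15363 to 16205 after dexamethasone, 16951 to 17320 after AICAR, 15378 to 15454 after the combination and 17263 to 18137 after vehicle. Neutrophil markers (3 genes) summed to 91 to 93 after dexamethasone, 271 to 274 after AICAR, 360.2 to 390.5 after the combination and 178 to 186 after vehicle. All 3 were called lower after dexamethasone, and 2 were called higher after the combination. Cholangiocyte markers (4 genes) summed to 389 to 400 after dexamethasone, 358 to 384 after AICAR, 438 to 465 after the combination and 407 to 409 after vehicle. The part of cell makeup in the ribosomal protein differences was not tested.

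The 3′ minus 5′ difference of the actin control, which grows as RNA breaks down, averaged 2.04 after dexamethasone, 1.82 after AICAR, 1.80 after the combination and 2.23 after vehicle. For GAPDH it was 0.42 after dexamethasone, 0.39 after AICAR, 0.33 after the combination and 0.61 after vehicle. The actin arrays read 2.04 and 2.03 after dexamethasone and 1.77 and 1.83 after the combination, without overlap. GAPDH read 0.43 and 0.40 after dexamethasone, 0.41 and 0.37 after AICAR, and 0.31 and 0.34 after the combination. RNA quality and treatment cannot be told apart in comparisons with vehicle, in those of the combination with either agent, or in the interaction. Actin values of AICAR and combination arrays did overlap. Of all called probe sets 47.0% were higher after dexamethasone, 42.2% after AICAR and 55.1% in the interaction, and centring the arrays on the brighter probe sets gave 57.6%, 56.1% and 44.0%, so the split over all probe sets depends on the scaling. For the members the number called lower was 0 under centring and cyclic loess in all 6 comparisons. Ribosomal protein genes have many processed pseudogenes, and a probe set may read near-identical copies.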

How the data were processed

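Total RNA was purified on columns and turned into biotin-labelled cRNA, and an Affymetrix rat array was hybridised, per the labels' protocols. The authors deposited 1 RMA value per probe set and array, which they computed in affy, as the submitters' processing notes name it. Versions and the base of the logarithm are not given in the sources used here, and the range of the deposited values was taken as that of log2 values. RMA gives no detection call and compresses differences of dim probe sets. No raw intensities were used here, so the number of arrays limits the precision.

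The 57 control probe sets were left out of all tests. Of the other 31042, 20826 carried 1 gene symbol, 436 several and 9780 none in the platform annotation, and 40 of the 42 member gene IDs were found in a GRCr8 gene table. A gene was represented by its probe set with the highest mean over 8 arrays. The test was limma 3.58.1 (R 4.3.3) with a coefficient for each group over all 8 arrays. Degrees of freedom were 4 residual and 4.58 prior, and p-values were adjusted over 31042 probe sets by the Benjamini-Hochberg method. Values after ± are standard errors with n = 2 arrays per group. The code was tested on simulated data.

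The members and all gene lists were chosen with earlier results of these data known. Named are the 5 largest called rises and falls per comparison, probe sets of a gene called in opposite directions, a panel of fixed genes (of which those with a probe set of their own are given), up to 3 called genes with the smallest p per list, and genes at the ends of a range, chosen after their values were seen. Replicate numbers did not pair the arrays: deviations of same-numbered arrays from their group means correlated between -0.04 and 0.16. Alternatives covered dim probe sets left out, a prior that is trended and robust, the compared groups fitted alone, a replicate block, cyclic loess, centring, gene means, unsuffixed probe sets, and each array left out in turn.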

Additional observations from a re-analysis of the deposited data

Results flagged for a closer look

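A set of 10 ribosomal protein genes was flagged because the effect of dexamethasone differed with and without AICAR by a test of the difference itself (limma interaction, Benjamini-Hochberg adjusted p under 0.05, n = 2 arrays per group). In each of the 10 the dexamethasone difference was larger with AICAR. Among all genes 11.9% had a positive interaction called and 8.05% a negative one. Rpl13a had an interaction of 0.72 ± 0.10 (SE, adjusted p = 0.00244), with dexamethasone differences of 0.80 with AICAR and 0.08 without. Rpl23a had 0.50 (0.75 with AICAR and 0.25 without), Rpl22 had 0.49 (0.54 and 0.04) and Rpl24 had 0.48 (0.61 and 0.13). Rpl18 followed with 0.44 (0.63 with AICAR and 0.19 without), Rpl14 with 0.40 (0.73 and 0.33) and Rpl34 with 0.39 (0.63 and 0.23). The others were Rps15a with 0.39 (0.57 with AICAR and 0.18 without), Rpl35a with 0.38 (0.66 and 0.27) and Rps6 with 0.36 (0.57 and 0.21). Adjusted p-values of these 10 genes lay between 0.00244 and 0.0441. Rpl13a was called in all 15 alternative settings that tested it. Over 16 settings Rpl24 was lost in 1, Rpl23a in 2, Rpl22 in 3 and the other 6 in 6 to 11, and no sign changed. For an interaction, fitting only the groups compared takes in all 4 groups, so that setting repeats the main fit and could not differ.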

How the results depend on the processing

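No ribosomal protein gene was called lower in any comparison under any setting but 1, and counts of calls moved far more than medians did. With only probe sets above the median level tested, 39 members remained. Of these 9 were higher after AICAR and 22 had a positive interaction, against 4 and 10 of 42 as reported. Calls over all probe sets also became more frequent, at 1996 and 3346 of 15521 against 1692 and 2679 of 31042 as reported. A trended and robust prior gave 34 genes higher after dexamethasone (19 as reported), 13 higher and 2 lower after AICAR, and 28 interactions. Over all 31042 probe sets it called 3396 higher after dexamethasone (2692 as reported). After AICAR it called 2409 higher and 3639 lower (1692 and 2319 as reported), and it called 3740 positive interactions (2679 as reported). Fitting only the groups compared left 5 genes higher after dexamethasone and 2 after AICAR. Cyclic loess left 5 interactions, and gene means over probe sets gave 7 genes after AICAR and 19 interactions. Of all 14217 genes, gene means called 1192 higher after AICAR and 1879 with a positive interaction, against 885 and 1696 as reported. Leaving out 1 array at a time gave 3 to 16 genes higher after dexamethasone, 2 to 4 after AICAR, 34 to 39 after the combination, 14 to 31 for the combination against dexamethasone, 29 to 39 against AICAR and 1 to 7 interactions, with 0 lower throughout. A lone array in a group was assumed to vary like the other groups. With the replicate number as a block, which no label ties to a shared animal or day, 18 genes were higher after dexamethasone, 3 after AICAR, 39 after the combination, 30 against dexamethasone, 39 against AICAR, and 8 had an interaction. Differences of single genes that were called as reported changed sign in 2 cases, both where a dim probe set entered. Rpl7 went to -0.092 for the combination against AICAR as the mean of its probe sets, and Rps24 to -0.12 for the combination against dexamethasone with its unsuffixed probe set. Of 4008 single-gene results under alternatives, 299 lost a call and 111 gained one. A further 52 changed sign but were called in neither setting. Dim signals limit Rpl28, Rpl30 and Rps13. With 2 arrays per group, the smallest member difference called in the main fit ranged from 0.24 to 0.28 between groups. For the interaction it was 0.36.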
